A study of Mus musculus with 8 samples.

Results

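The 48 genes described here carry the KEGG term for N-glycan biosynthesis in the deposited tables, out of 34745 genes listed there. N-glycans are branched sugar chains attached to asparagine residues of secreted and membrane proteins. The chain is first built on the lipid dolichol, on the cytosolic and then on the luminal face of the endoplasmic reticulum, and is moved as a block to the growing protein by the oligosaccharyltransferase complex. Glucosidases and mannosidases then trim it, and in the Golgi N-acetylglucosaminyltransferases add branches that are capped with fucose, galactose and sialic acid. In the gut epithelium such chains are carried by mucus proteins, brush border enzymes, adhesion molecules and receptors.

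RNA was sequenced from crypts, the glands of the intestinal lining, of wild-type C57BL/6 mice on day 5. The mice of all 8 libraries were given DSS (dextran sulfate sodium), which damages the intestinal lining and is used to induce colitis. In 4 libraries it was given alone (DSS), and in the other 4 together with CA (DSS+CA). CA is cholic acid according to the series title, and is one of the primary bile acids. The comparison asks how gene expression in crypts of mice given DSS differs with cholic acid. The labels do not give the gut segment, the dose or route of either agent, or whether the replicates are separate animals, so the spread behind the p-values is that between these samples and may be technical only. No group without DSS is among these 8 libraries.

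The promoters below are shown for a motif match (Alg12), for groups that did not overlap (Stt3b) and for comparison with Stt3b (Stt3a). Alg12 encodes a mannosyltransferase of the luminal face and had the only match, among the N-glycan genes, to a recognition sequence of the unfolded protein response, the programme that enlarges the folding capacity of the endoplasmic reticulum. Stt3a and Stt3b encode the alternative catalytic subunits of oligosaccharyltransferase, and Stt3b was the only member whose groups did not overlap. Sequences are from RefSeq on GRCm38.p6, read 5′ to 3′ on the gene's strand, from 250 bases before to 50 bases after the start. Capitals mark the letters CCAAT and CCACG of the match in Alg12, and no capitals stand in the other sequences because none of the 4 motifs searched was found there. Alg12 (minus strand) spans chr15:88819269-88819568, Stt3a (minus strand) chr9:36767573-36767872 and Stt3b (minus strand) chr9:115310419-115310718.
Alg12: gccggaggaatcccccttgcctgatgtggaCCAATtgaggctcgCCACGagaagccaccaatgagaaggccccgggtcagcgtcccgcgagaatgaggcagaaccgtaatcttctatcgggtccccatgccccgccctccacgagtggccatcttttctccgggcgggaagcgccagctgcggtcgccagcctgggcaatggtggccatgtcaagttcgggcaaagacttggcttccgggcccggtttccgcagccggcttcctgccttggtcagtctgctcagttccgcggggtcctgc
Stt3a: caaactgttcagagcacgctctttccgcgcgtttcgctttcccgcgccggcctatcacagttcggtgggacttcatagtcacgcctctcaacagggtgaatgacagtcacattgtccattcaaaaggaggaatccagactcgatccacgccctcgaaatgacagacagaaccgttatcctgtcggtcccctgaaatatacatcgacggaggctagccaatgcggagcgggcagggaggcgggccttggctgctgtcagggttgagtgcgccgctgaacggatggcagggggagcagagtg
Stt3b: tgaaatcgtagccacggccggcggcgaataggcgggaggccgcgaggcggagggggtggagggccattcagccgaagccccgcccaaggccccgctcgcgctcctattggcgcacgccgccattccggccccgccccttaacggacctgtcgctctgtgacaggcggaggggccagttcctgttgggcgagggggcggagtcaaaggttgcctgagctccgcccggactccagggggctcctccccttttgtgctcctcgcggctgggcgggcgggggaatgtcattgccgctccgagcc

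RefSeq promoters were found for 40 of the 48 genes, which gave 52 promoters. Tusc3, Dpagt1, Mgat3, Mgat4b, Alg2, Alg11, Man2a2 and Man1a2 were not matched. The first motif, ERSE (CCAAT, 9 bases of any kind, CCACG), lay on the sense strand at positions -220 to -202 from the Alg12 start. It was in 1 of the 52 promoters and in 39 of all 32851 promoters of this length (0.119%), with both strands searched. ERSE-II (ATTGG, 1 base, CCACG), held by 0.0365% of all promoters, UPRE (TGACGTGG), held by 0.676%, and the amino acid response letters TGATGNAAT, held by 0.965%, were in none of the 52. A match describes letters only. The GC content of the 52 promoters had a median of 60.7% (quartiles 52.6% and 69.2%), against 52.7% (45.7% and 61.7%) over all 32851.

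The libraries held between 13334012 and 17973196 counts, of which the N-glycan genes took 25547 to 68883, or 0.142% to 0.468%. Libraries differed within the groups: the mean length of a counted gene (weighted by counts) was 1423 to 1448 bases in DSS 2, DSS 3 and DSS+CA 3 and 1719 to 2412 bases in the other 5. These 3 libraries are called the short-gene libraries here. Values of the tested members without them stand beside a result, in the last paragraph of the Results or in the closing sections. For single genes outside the members such values are not given. Mitochondrially encoded genes took 9.72% to 27.7% of the counts. Markers of the epithelium summed to 7080 to 8833 CPM (counts relative to sequencing depth, scaled by TMM) in DSS and to 6949 to 9245 CPM in DSS+CA. Of these 7 markers, 6 had a log2 fold change (DSS+CA against DSS) above 0, with a median of 0.22, and none passed. The other marker lists differed in how far they followed the groups. All 12 T and NK cell markers had a log2 fold change below 0. Their values lay between -2.35 and -1.57. Of the 12, 1 passed at an adjusted p of 0.05 (edgeR), the αE integrin gene Itgae (log2 fold change -1.90). At an unadjusted p under 0.05 (edgeR), 11 of the 12 were lower, against 4.85% of all tested genes. The groups did not overlap for 8 of them, all lower, against 2.81% of all tested genes. The T and NK cell markers summed to 566.1 to 2021 CPM in DSS and 111.9 to 1113 CPM in DSS+CA. The largest part was Gzma, with means of 904.1 CPM in DSS and 303.3 CPM in DSS+CA. B and plasma cell markers (4 of 10 tested, 4 below 0) summed to 55.1 to 82.8 CPM and 14.1 to 28.6 CPM, macrophage and neutrophil markers (1 of 8 tested) to 8.17 to 20.2 CPM and 3.06 to 8.997 CPM, and stromal markers (0 of 9 tested) to 4.34 to 11.2 CPM and 1.71 to 2.56 CPM. Paneth cell markers (6 of 6 below 0) summed to 4882 to 31730 CPM and 3747 to 15435 CPM. Goblet cell markers (6 of 7 below 0) summed to 7985 to 11905 CPM and 3617 to 7953 CPM. Enterocyte markers (6 of 8 below 0) summed to 28821 to 102438 CPM and 31616 to 113677 CPM, with a median log2 fold change of -0.04. The T and NK, macrophage and neutrophil, Paneth and enterocyte sums overlapped between the groups. No marker found in the tables was at 0 counts in all libraries. The part of cell makeup and of the short-gene libraries in the values below was not tested, and in bulk RNA fewer cells of a type and less RNA per cell cannot be told apart.

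No N-glycan gene passed the test between DSS+CA and DSS. More values lay above 0 than below: 35 of the 40 tested genes (87.5%) had a log2 fold change above 0, against 51.9% of all 9913 tested genes, and the median was 0.37, against 0.02. With edgeR's quasi-likelihood test, 0 of the 40 were higher and 0 lower at an adjusted p of 0.05, against a background of 0.0404% of all tested genes higher and 0.0908% lower. The smallest adjusted p was 0.366, for Alg2. DESeq2 also called 0 of the 40, with 0.514% of all genes higher and 1.7% lower. At an unadjusted p under 0.05, edgeR gave 2 of the 40, both higher (5.0%), against 2.97% of all genes higher and 4.85% lower. The groups did not overlap for 1 of the 40 (2.5%), Stt3b, against 3.24% of all genes higher and 2.81% lower. The shares called, at an unadjusted p under 0.05 and without overlap are near the background. The share above 0 (87.5% against 51.9%) is not.

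Sizes were modest for nearly all of them. For 39 of the 40 the log2 fold change lay within 1 of 0, the exception being Alg2. For 13 of the 40 the 95% confidence interval lay wholly within 1 of 0 and so excluded a 2-fold difference in either direction, while for the other members a difference of that size was not excluded. When each library was left out in turn, 25 genes stayed above 0 in all 8 fits, and 2 (Mgat3 and Mgat1) stayed below 0. The sign of the other 13 (Alg5, Dpm2, Dpm3, Alg11, Alg6, Man1a2, Man1b1, Mgat4a, Mgat4b, Mgat4c, Fut8, B4galt3 and Glt28d2) turned in at least 1 fit. DSS 2 turned 8 of them, and each other library except DSS+CA 2 turned at least 1. A log2 fold change at or above the members' median was found for 17.3% of all tested genes. The genes lie on 17 chromosomes, so they are not neighbours in one region.

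**Figure D1:**
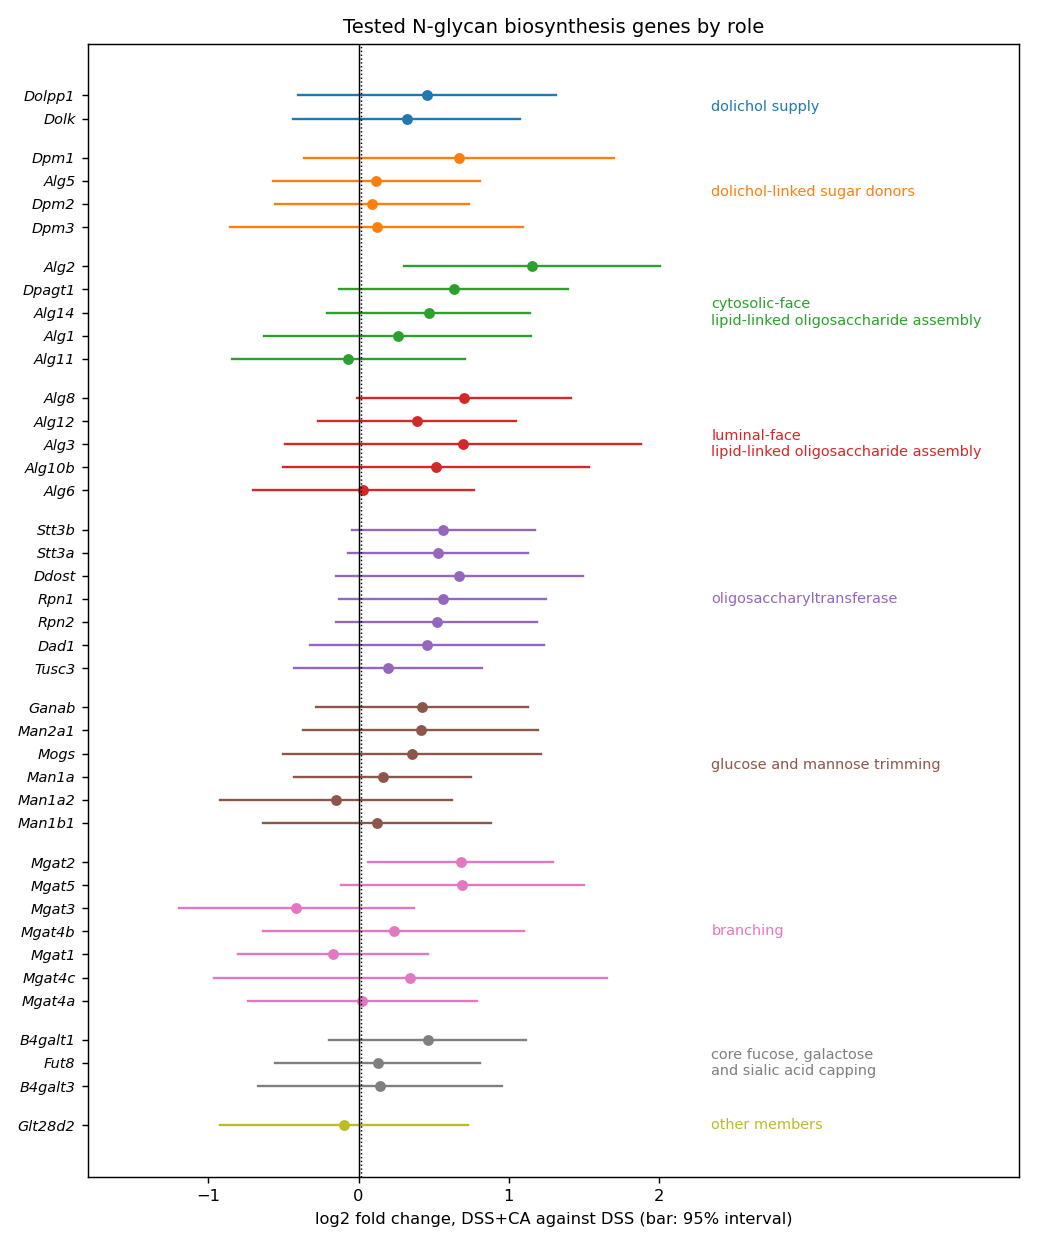
Log2 fold change (DSS+CA against DSS, horizontal axis) of the 40 tested N-glycan genes, grouped by role on the vertical axis, with bars for the 95% confidence interval from edgeR and a dotted line at the median of all tested genes (0.02). Points sit right of 0 for 35 genes, with Alg2 farthest at 1.15 and Mgat3 lowest at -0.41.

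The summed level of all 48 genes was 2960, 1949, 2449 and 2518 CPM in DSS 1 to 4, and 3639, 3088, 2657 and 3192 CPM in DSS+CA 1 to 4. The lowest DSS+CA library, DSS+CA 3, lay below the highest DSS library, so the groups overlapped. The means were 2469 ± 414.4 CPM and 3144 ± 403.2 CPM (SD, n = 4), a log2 ratio of 0.35. With the deposited FPKM values, which are scaled to the total count and to gene length, the log2 ratio of the sums was 0.61. In each group the lowest sums belonged to short-gene libraries.

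**Figure D2:**
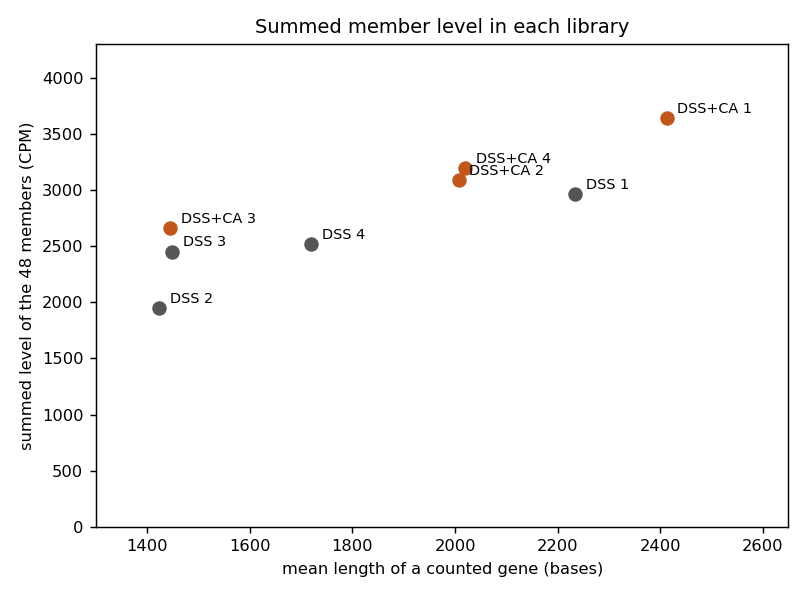
Summed level of the N-glycan genes (CPM, vertical axis) against the mean length of a counted gene (bases, horizontal axis) for the 8 libraries, with DSS in grey and DSS+CA in orange. DSS 2 is lowest with 1949 CPM at 1423 bases, and DSS+CA 1 is highest with 3639 CPM at 2412 bases.

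The first steps supply dolichol and its sugar donors. Dolk, the kinase that makes dolichol phosphate, and Dolpp1, the phosphatase that recycles dolichol pyrophosphate, had log2 fold changes of 0.32 (SE 0.34) and 0.45 (SE 0.39). With single libraries left out, Dolk ranged from 0.15 (without DSS 2) to 0.69 (without DSS 3), and Dolpp1 from 0.25 (without DSS+CA 4) to 0.70 (without DSS+CA 3). Dpm1, the catalytic subunit of dolichol phosphate mannose synthase, had 0.67 (SE 0.47), but 0.45 without DSS 3, 0.35 without DSS+CA 3 and 0.11 without the short-gene libraries. Its partners Dpm2 and Dpm3 had 0.09 and 0.12. Alg5, which makes dolichol phosphate glucose, had 0.12. None of the 6 passed, and the groups overlapped for each. Reads of Dolpp1 and of Crat on the opposite strand, and of Dpm1 and Gm20716 on the same strand, may have been counted for one another, because the genes overlap and the strand setting is not given in the sources used here. In all, 11 members overlap another protein-coding gene, among them Alg1 (Eef2kmt), Mgat2 (Gm49383), Mgat5 (Tmem163, which had 1 count over all libraries) and Rpn2 (Mroh8, which had 23).

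Assembly on the cytosolic face held the member with the smallest p. Alg2 (chr4:47465067-47474333, minus strand, GRCm38) encodes the mannosyltransferase that adds the mannoses after the first. It was at 5.37, 8.24, 12.2 and 16.1 CPM in DSS 1 to 4 and at 29.7, 21.3, 14.0 and 28.0 CPM in DSS+CA 1 to 4. DSS+CA 3 lay below DSS 4, and the other 3 DSS+CA libraries lay above all DSS libraries. The log2 fold change was 1.15 (SE 0.39, unadjusted p = 0.0125, adjusted p = 0.366, edgeR).

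Dpagt1, which starts the chain by placing N-acetylglucosamine phosphate on dolichol and is the target of tunicamycin, was at 22.1, 10.1, 18.6 and 19.1 CPM in DSS and 34.1, 28.5, 14.9 and 30.6 CPM in DSS+CA. Again DSS+CA 3 alone lay within the DSS range, and the log2 fold change was 0.63 (SE 0.35, adjusted p = 0.747, edgeR). Alg14, the membrane anchor of the enzyme that adds the second N-acetylglucosamine, had 0.47, and Alg1, which adds the first mannose, had 0.26, which single libraries moved between 0.02 (without DSS 2) and 0.59 (without DSS 3). Alg11, which adds the last mannoses on this face, had -0.07. The 6 genes of this step, untested Alg13 included, summed to 73.2 to 84.1 CPM in DSS and 96.2 to 110.5 CPM in DSS+CA, and these sums did not overlap. The sums of each other role overlapped. Among the further pathway lists below, those of nucleotide sugar supply did not overlap (1313 to 1501 CPM in DSS, 1656 to 2067 CPM in DSS+CA). The same held for nucleotide sugar transporters (392.6 to 550.8 and 575.9 to 682.8 CPM) and glycan-dependent folding genes (2623 to 2877 and 2980 to 3583 CPM). The sums of the remaining pathway lists overlapped. These sums were compared after the values were seen and have no test.

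Inside the endoplasmic reticulum the chain gains mannose and glucose. Alg8, which adds the second glucose, was at 13.2, 6.10, 9.81 and 10.9 CPM in DSS and 20.97, 17.7, 11.7 and 14.7 CPM in DSS+CA. DSS+CA 3 lay below DSS 1 and all other DSS+CA libraries lay above the DSS range. Its log2 fold change was 0.70 (SE 0.33, adjusted p = 0.651, edgeR). The mannosyltransferases Alg3 and Alg12 had 0.70 (SE 0.54) and 0.39 (SE 0.30), and Alg3 had 0.36 without DSS 2. Alg12, whose promoter with the ERSE letters is printed above, was at 9.76 to 15.8 CPM in DSS and 10.9 to 20.4 CPM in DSS+CA. The glucosyltransferases Alg10b, which adds the last glucose, and Alg6, which adds the first, had 0.52 (SE 0.46) and 0.03 (SE 0.34). The value of Alg10b was 1.13 without DSS 1, 0.26 without DSS 3 and 0.12 without the short-gene libraries.

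All 7 tested subunits of oligosaccharyltransferase had log2 fold changes above 0, with a median of 0.53, and none passed. Stt3b (chr9:115242607-115310421, minus strand, GRCm38), the catalytic subunit that can also act after translation, was at 170.6, 100.1, 126.7 and 145.6 CPM in DSS and 240.4, 197.7, 181.1 and 183.1 CPM in DSS+CA. Every DSS+CA library lay above every DSS library. The log2 fold change was 0.56 (SE 0.28, adjusted p = 0.694, edgeR), and 0.36 without the short-gene libraries.

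Stt3a, the catalytic subunit that acts at the translocon during translation, was at 172.1, 127.9, 112.4 and 138.7 CPM in DSS and 234.6, 201.4, 158.6 and 201.6 CPM in DSS+CA. DSS+CA 3 lay below DSS 1, the one overlap, and the log2 fold change was 0.53 (SE 0.27, adjusted p = 0.717, edgeR). The ratio of the catalytic subunits was alike in the groups: Stt3a counts divided by Stt3b counts gave 1.03 ± 0.172 in DSS and 0.993 ± 0.0937 in DSS+CA (SD, n = 4).

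Of the noncatalytic subunits, Ddost was at 142.5, 62.0, 156.1 and 123.0 CPM in DSS and 244.5, 206.1, 100.4 and 218.3 CPM in DSS+CA. Rpn1, ribophorin I, was at 164.4, 138.3, 246.8 and 171.2 CPM in DSS and 323.9, 269.5, 172.1 and 296.3 CPM in DSS+CA. In both genes DSS+CA 3 lay inside the DSS range and the other DSS+CA libraries lay above it. Their log2 fold changes were 0.67 (SE 0.37) and 0.56 (SE 0.31). Rpn2, ribophorin II, had 0.52, Dad1 had 0.46 (0.26 without DSS 2 and 0.76 without DSS 3), and Tusc3, the thioredoxin-like subunit of the STT3B complex, had 0.19. Together the 7 subunits summed to 608.3 to 1017 CPM in DSS and 901.5 to 1525 CPM in DSS+CA.

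**Figure D3:**
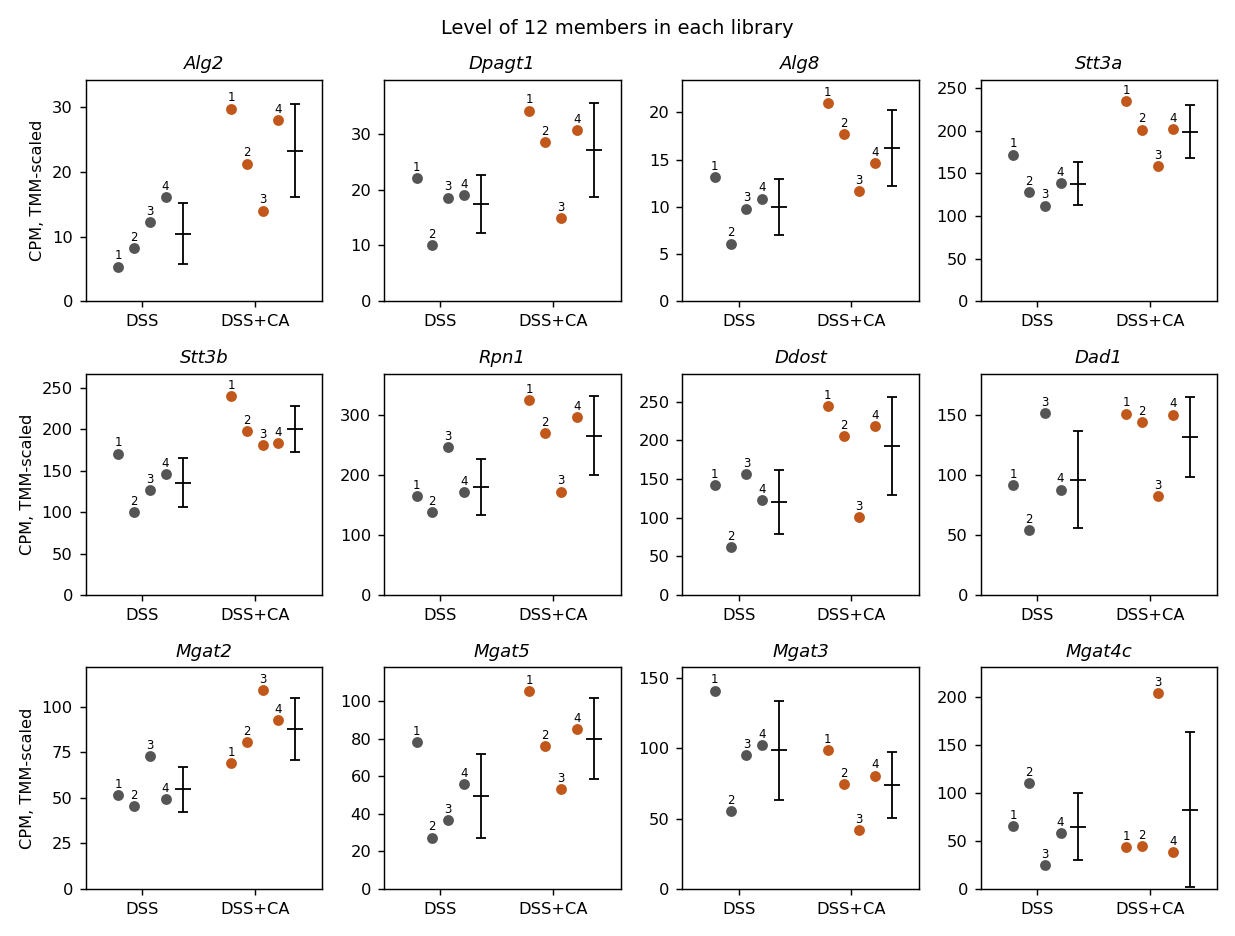
Level (CPM, vertical axis from 0) of 12 N-glycan genes in the 4 DSS (grey) and 4 DSS+CA (orange) libraries, numbered by replicate, with horizontal and vertical bars for mean and SD. Stt3b shows no overlap between groups, DSS+CA 3 lies within the DSS range for Alg2, Dpagt1, Rpn1 and Ddost, and Mgat4c is high in DSS+CA 3 alone, at 203.7 CPM.

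Trimming genes lay closer to 0, with a median log2 fold change of 0.26 over 6 tested. Mogs, glucosidase I, which removes the outermost glucose, had 0.35 (SE 0.39), which single libraries moved between 0.13 (without DSS 2) and 0.69 (without DSS 3). Ganab, the catalytic subunit of glucosidase II, was at 96.9 to 212.8 CPM in DSS and 153.7 to 279.5 CPM in DSS+CA, with 0.42 (SE 0.32), and with 0.24 without DSS 2, 0.26 without DSS+CA 1 and 0.26 without the short-gene libraries. Man2a1, the Golgi mannosidase II, had 0.42 (SE 0.36), which ranged from 0.21 (without DSS 3) to 0.76 (without DSS 1), and was -0.09 without the short-gene libraries. The mannosidases Man1a, Man1a2 and Man1b1, which remove mannose before branching, had 0.16, -0.15 and 0.12, and Man1a had -0.15 without the short-gene libraries.

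Branching genes went in different directions. Mgat2, which starts the second antenna of complex chains, was at 51.4, 45.3, 73.1 and 49.5 CPM in DSS and 69.0, 80.5, 109.4 and 92.7 CPM in DSS+CA. DSS+CA 1 lay below DSS 3, and the others lay above the DSS range. The log2 fold change was 0.68 (SE 0.28, unadjusted p = 0.0332, adjusted p = 0.551, edgeR).

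Mgat5, which adds the β1,6 branch that can be extended with poly-N-acetyllactosamine, was at 78.5, 27.3, 36.8 and 55.8 CPM in DSS and 105.5, 76.3, 53.4 and 85.1 CPM in DSS+CA, which gave 0.69 on the log2 scale (SE 0.37, adjusted p = 0.739, edgeR) and 0.37 without the short-gene libraries. Mgat3, which adds the bisecting N-acetylglucosamine that hinders further branching, was at 141.0, 55.6, 95.01 and 102.5 CPM in DSS and 98.6, 74.7, 41.9 and 80.6 CPM in DSS+CA. Its log2 fold change was -0.41 (SE 0.36, adjusted p = 0.926, edgeR), the lowest among the members, and was -0.19 without DSS 1 and -0.22 without DSS+CA 3. Each gene alone overlapped between the groups.

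Mgat5 lies at chr1:127205015-127488336 and Mgat3 at chr15:80173721-80215519, both on the plus strand of GRCm38. Their ratio within a library, in which the library's scaling cancels, did not overlap. Mgat5 counts per Mgat3 count were 0.556, 0.491, 0.388 and 0.544 in DSS and 1.07, 1.02, 1.27 and 1.06 in DSS+CA, with means of 0.495 ± 0.0770 and 1.11 ± 0.114 (SD, n = 4). All DSS libraries thus held more Mgat3 than Mgat5 counts, and all DSS+CA libraries held more Mgat5 counts. This pair was chosen after the values were seen, as the one with the widest gap between groups among the 780 pairs of tested members, so it is a description with no test. Ratios did not overlap for 46 of the 780 pairs (5.9%), and 18 of those 46 involved Mgat3, which enters 39 pairs. The share among pairs of all tested genes was not computed, so these counts do not show that the members or Mgat3 stand out. The mean log2 difference of the ratio was 1.17, and without the short-gene libraries it was 0.93.

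**Figure D4:**
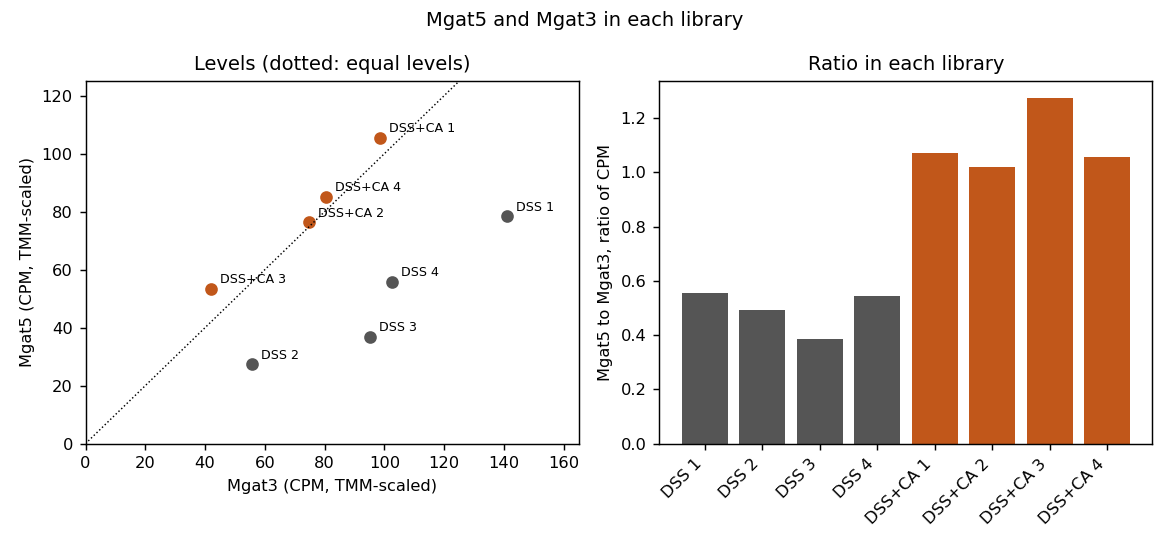
Left, level of Mgat5 against level of Mgat3 (CPM) in each library, with a dotted line of equal levels; right, a bar per library for the ratio of Mgat5 to Mgat3. DSS libraries (grey) lie below the line with ratios of 0.388 to 0.556, and DSS+CA libraries (orange) lie above it with ratios of 1.02 to 1.27.

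The other branching enzymes did not share a direction. Mgat1, which starts the conversion to hybrid and complex chains, was at 18.5 to 39.9 CPM in DSS and 24.0 to 27.9 CPM in DSS+CA, with a log2 fold change of -0.17 (SE 0.29). Mgat4a and Mgat4b, which add the β1,4 branch, had 0.03 and 0.23. Mgat4c, a relative of these, was at 65.8, 110.1, 25.1 and 58.5 CPM in DSS and 43.4, 44.3, 203.7 and 38.4 CPM in DSS+CA. A single library, DSS+CA 3, was high, and the log2 fold change of 0.34 was -0.63 without it. The median of the 7 tested branching genes was 0.23, and -0.25 without the short-gene libraries.

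No capping gene passed. B4galt1, the main galactosyltransferase of complex chains, was at 50.3 to 111.8 CPM in DSS and 92.7 to 122.5 CPM in DSS+CA, with a log2 fold change of 0.46 (SE 0.30), which was 0.29 without DSS 2 and 0.21 without the short-gene libraries. B4galt3, a relative, had 0.14, and Fut8, which adds the core fucose, had 0.13 (SE 0.31). Glt28d2, a member with a glycosyltransferase domain like that of Alg13, had -0.10. Reads of such related genes may not be separable, and B4galt3 also overlaps Ppox on the opposite strand.

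The remaining 8 members did not reach the filter of an FPKM of at least 1 in at least 4 libraries and were not tested. Mgat4d and Mgat5b had 0 counts in every library, which allows up to 3 counts in each by counting error alone. St6gal1, the α2,6-sialyltransferase of N-glycans, had 10, 8, 6 and 12 counts in DSS and 10, 4, 2 and 10 in DSS+CA. Its relative St6gal2 had 6 counts in DSS in all and 0 in DSS+CA. Counts per library were 46 to 127 for Alg13, the catalytic partner of Alg14, 12 to 82 for the mannosidase Man2a2, 1 to 9 for the mannosidase Man1c1 and 0 to 12 for the galactosyltransferase B4galt2.

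Levels can be compared between genes only per length, so deposited FPKM is used here. In DSS the highest mean was that of Ddost at 55.4 ± 25.1 FPKM, followed by Ganab at 40.6 ± 20.3, Stt3b at 31.6 ± 13.8, Rpn1 at 29.0 ± 8.16 and Rpn2 at 27.1 ± 10.7 (SD, n = 4). Neighbours in this order differed by less than their SDs. The lowest tested member was Dpm1 at 1.01 ± 0.440 FPKM. Stt3b, with 31.6 ± 13.8, stood above Stt3a, with 12.8 ± 5.26 FPKM, although their CPM were alike, since their gene lengths in the tables differ. Among the branching enzymes Mgat3 (21.1 ± 11.8 FPKM) and Mgat2 (19.6 ± 5.14) were above Mgat5 (3.81 ± 2.54) in DSS. The FPKM of Mgat3 also exceeded that of Mgat5 in DSS+CA, at 18.02 ± 8.53 against 6.82 ± 3.01.

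Genes that act in the same steps but lack the KEGG term were also mostly above 0. Of 12 tested, 11 had a log2 fold change above 0, with a median of 0.32, and none passed. Ostc, an oligosaccharyltransferase subunit, was at 77.9 to 133.9 CPM in DSS and 124.5 to 192.5 CPM in DSS+CA, with 0.55 (SE 0.28, adjusted p = 0.720, edgeR). Tmem258, another subunit, had 0.52. Nus1, a subunit of the enzyme that makes the dolichol chain, did not overlap between groups, at 68.3 to 93.4 CPM against 93.7 to 143.4 CPM. It was the only one of the 12 without overlap, where 3.24% of all tested genes were higher without overlap.

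Sugars reach these enzymes as nucleotide sugars, made in the cytosol or nucleus and carried into the Golgi and endoplasmic reticulum. Of 18 tested genes of nucleotide sugar supply, 15 were above 0 (median 0.33) and none passed. Gmds, the first enzyme of GDP-fucose synthesis, was at 79.8 to 149.6 CPM in DSS and 174.3 to 243.0 CPM in DSS+CA, which gave 0.77 on the log2 scale (SE 0.29, adjusted p = 0.465, edgeR). Cmas, which activates sialic acid, had 0.64 (SE 0.27, adjusted p = 0.569, edgeR). The groups did not overlap for 3 of the 18, Gmds, Cmas and Pmm2, the phosphomannomutase, all higher, against 3.24% of all tested genes that were higher without overlap. Of 9 tested Golgi and endoplasmic reticulum transporters of nucleotide sugars, 7 were above 0 (median 0.52), with 0.75 for the UDP-galactose transporter Slc35a2 and 0.84 for the GDP-fucose transporter Slc35c1. None passed.

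Capping enzymes outside the column included the value with the smallest adjusted p in these lists. B4galt6, a β1,4-galactosyltransferase known mainly for lactosylceramide synthesis, was at 122.7, 74.9, 61.0 and 90.5 CPM in DSS and 195.3, 166.6, 211.7 and 162.7 CPM in DSS+CA. The groups did not overlap, and the log2 fold change was 1.076 (SE 0.30, adjusted p = 0.209, edgeR). Its relative B4galt5 had 0.86 (SE 0.39). Over the 9 tested genes of this list 7 were above 0, with a median of 0.14.

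Genes downstream of the chain were mixed. Of 14 tested genes of glycan-dependent folding and quality control, 9 were above 0 (median 0.18), with 0.59 for the lectin chaperone Calr and 0.43 for its partner Pdia3. Of 18 tested genes of the unfolded protein response, 15 were above 0 (median 0.39), none passed, and Creld2, a target of that response, was at 37.1 to 51.0 CPM in DSS and 54.9 to 87.3 CPM in DSS+CA (log2 fold change 0.83, SE 0.27, adjusted p = 0.335, edgeR). Pdia4, a disulfide isomerase of the endoplasmic reticulum, had 0.75. The groups did not overlap for 2 of the 18, both higher, against 3.24% of all tested genes that were higher without overlap. These were Creld2 and Xbp1, a transcription factor of that response (0.62, SE 0.27, adjusted p = 0.612, edgeR). Lysosomal genes of N-glycan breakdown and the mannose 6-phosphate tag had 7 of 15 above 0 and a median of 0.00 to 2 decimals. Among them Fuca1, a fucosidase, had -0.50, at 175.7 to 479.7 CPM in DSS and 165.3 to 323.3 CPM in DSS+CA.

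**Figure D5:**
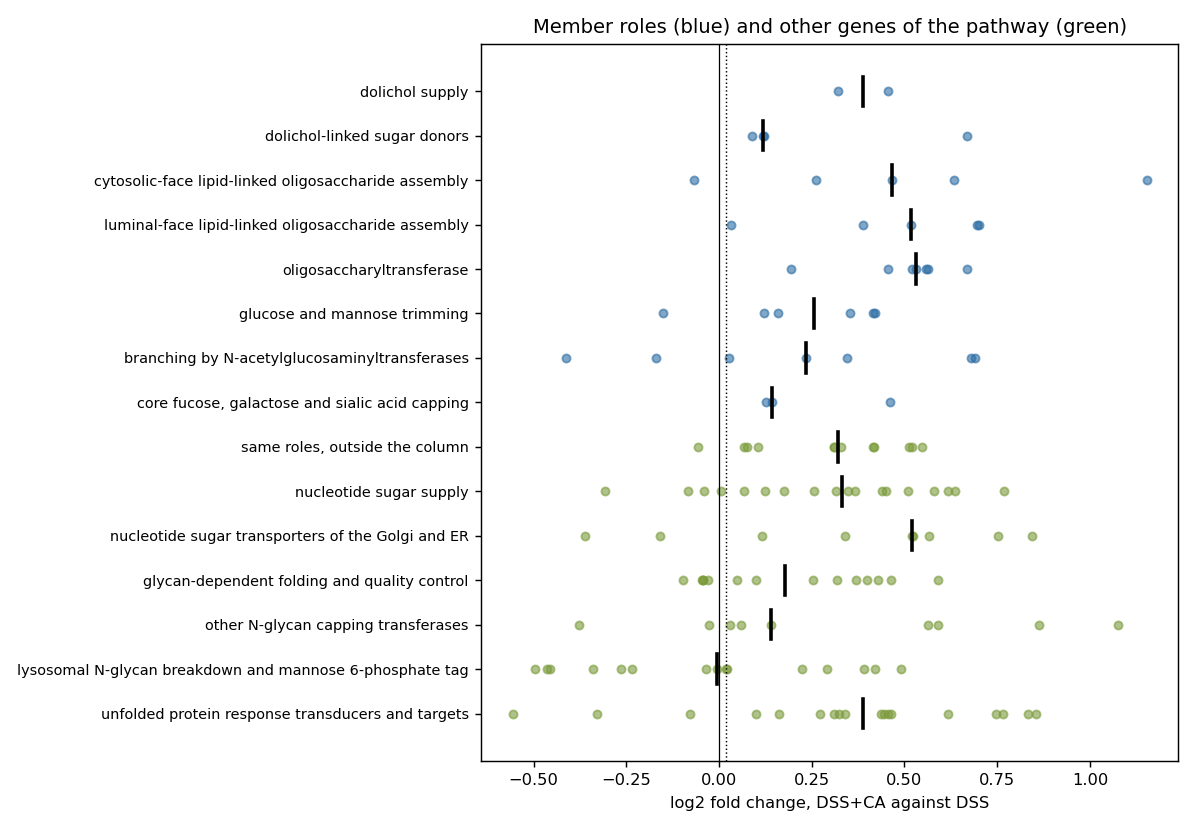
Log2 fold change (DSS+CA against DSS) of every tested gene in the N-glycan roles and in the other gene lists of the pathway, with 1 point per gene, a thick line at each list's median and a dotted line at the median of all tested genes. The oligosaccharyltransferase genes all lie above 0 with a median of 0.53, and the lysosomal genes scatter around 0.

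Without the short-gene libraries, 2 DSS and 3 DSS+CA libraries remained and the counts of calls changed. 1 member was then called: Rpn1 was higher, by 0.79 on the log2 scale (SE 0.18, adjusted p = 0.0480, edgeR), where 2.36% of all tested genes were higher and 4.25% lower. At an unadjusted p under 0.05, 13 of the 40 members were higher (32.5%), against 12.5% of all genes, and 2 were lower (5.0%), against 15%. Above 0 were 29 of the 40, against 50.3% of all genes. Alg2 then had 1.28 (adjusted p = 0.104, edgeR), Mgat2 0.65 (adjusted p = 0.0768, edgeR) and Mgat3 -0.56 (adjusted p = 0.159, edgeR). Values also lay farther from 0 for Dad1 (0.70), Mogs (0.62), Dolk (0.61), Dpm3 (0.55), Alg1 (0.46), Alg5 (0.45), Tusc3 (0.39), Fut8 (0.20), Dpm2 (0.17), Man1a2 (-0.39) and Alg11 (-0.23), and Mgat4c had -0.60. Farther from 0 were also Ddost (0.72), Alg14 (0.66), Dolpp1 (0.64), Alg12 (0.49), Mgat1 (-0.25) and, by little, Mgat4b (0.24). Values lay nearer to 0 for Mgat5, Stt3b, Ganab, B4galt1, Alg10b and Dpm1, as given with each gene. Nearer to 0 were also Alg3 (0.68), Dpagt1 (0.57), Alg8 (0.53), Rpn2 (0.46), Stt3a (0.42), Man1b1 (0.10) and Glt28d2 (-0.08).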

How the data were processed

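RNA of crypts was sequenced in 4 DSS and 4 DSS+CA libraries, made from 200 ng of total RNA with a TruSeq Stranded Total RNA kit after RNeasy Micro extraction, per the labels' protocols. For each gene and library the authors deposited the raw count and the FPKM, per the file headers. The submitters' processing notes list HISAT2, StringTie, GRCm38 and mm10 with no versions. What tool, annotation and strand setting produced the counts is not given in the sources used here. Each deposited FPKM value equals the count over gene length and total count, with implied lengths that varied by at most 1% between libraries for all 17718 genes with counts in 2 or more. Overlap of genes was read from GENCODE release M21, in which 34267 of the 34745 identifiers were found.

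Members were taken by an exact match of the KEGG column, and a match without regard to case gave the same 48 genes. Genes with a deposited FPKM of at least 1 in at least 4 libraries were tested (9913). Counts were compared by edgeR 4.0.16, quasi-likelihood test, under R 4.3.3 (limma 3.58.1), with library scaling by TMM, group as sole term, two-sided p-values and Benjamini-Hochberg adjustment over all 9913 genes at a threshold of 0.05. SEs are derived from the F statistic. The common biological coefficient of variation was 0.416. The floor of 3 counts for a count of 0 covers counting error only. DESeq2 1.42.0 was an alternative, as were other scalings, filters and left-out libraries. The procedure was also run on simulated data with changes larger than those of nearly all members, so that run does not show how smaller differences fare. Figures were drawn with Python 3.11.15 and matplotlib 3.10.9.

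The members and lists were chosen with earlier results of these data known. The genes named are, in each role, the up to 4 tested members with the smallest p, members past the threshold or whose groups do not overlap, Stt3a, Stt3b, Dpagt1, Mgat1, Mgat5, Fut8 and St6gal1, members under the filter, and the 2 genes with the smallest p in each other list. Alg6, Alg11, Rpn2, Dad1, Tusc3, Man1a2, Man1b1, Mgat4a, Mgat4c, Nus1, Pmm2 and Xbp1, and the promoters of Alg12 and Stt3a, were added after values were seen. A gene that the rule names is not reported here. No 2 libraries of a group agreed within sampling noise.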

Additional observations from a re-analysis of the deposited data

Results flagged for a closer look

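In 5 of 84 groups of 4 libraries examined (42 measures), the highest or lowest library lay far from the other 3, and chance gives about 1 in 20. Dad1 was lowest in DSS+CA 3, at 82.5 CPM against 144.6 to 151.6 CPM in the others. Mgat4b was lowest in DSS 2, at 23.8 CPM against 58.3 to 65.0 CPM. Mgat4c was highest in DSS+CA 3, at 203.7 CPM against 38.4 to 44.3 CPM. B4galt3 was lowest in DSS+CA 3, at 11.5 CPM against 24.8 to 26.0 CPM, and Glt28d2 was highest in DSS 2, at 22.3 CPM against 9.204 to 10.9 CPM. Each of these libraries is one of the 3 with the shortest counted genes.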

How the results depend on the processing

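Of the 40 tested members, 25 kept the sign of their log2 fold change in each of the 15 settings run, and 0 were called in any setting except that without DSS 2, DSS 3 and DSS+CA 3 (1 higher, Rpn1 at 0.793). The members' median lay between 0.27 and 0.45 with each library left out. Calls among all genes, 4 higher and 9 lower, were 7 and 20 with RLE scaling, 51 and 169 with DESeq2, 18 and 61 with no filter, 8 and 19 with library sizes free of mitochondrial genes, and 234 and 421 without the 3 libraries. With each library left out they were 0 to 19 higher and 4 to 65 lower. The cause of these changes was not tested. Replicate numbers were not treated as pairs in the main fit. Same-numbered correlations, of deviations from the group means, were 0.77, -0.37, 0.10 and 0.22, and not every library correlated best with its own number. With so few libraries these values cannot show whether the libraries were paired. With the replicate block, 14 genes were higher and 51 lower, with 0 members, and the lysosomal median was 0.0127.

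The capping median was -0.16 with no filter, when more genes enter, and the branching median -0.25 without the 3 libraries. The folding median was 0.32 with no filter. The lysosomal median, -0.0045, was 0.0608 with no filter, 0.0272 with edgeR's own filter, and 0.0144 without the 3 libraries. With each library left out, medians lay at -0.0002 to 0.36 for sugar donors, -0.0046 to 0.32 for branching, 0.13 to 0.27 for folding, 0.20 to 0.53 for transporters, -0.13 to 0.10 for lysosomal genes, 0.21 to 0.67 for dolichol supply, 0.10 to 0.37 for trimming, 0.08 to 0.38 for capping and 0.05 to 0.30 for other capping enzymes. The log2 ratio of summed levels was 0.61 with deposited FPKM against 0.35. The log2 difference in the ratio of Mgat5 to Mgat3, an alternative chosen after seeing the data, was 1.055 to 1.229 with each library left out and 0.93 without the 3 libraries.

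Signs turned for 15 members. With RLE scaling and with DESeq2, Alg6 (-0.0125 and -0.0122) and Mgat4a (-0.0098 with each) turned. Without the 3 libraries Alg6 (-0.051), Man2a1 (-0.0948), Man1a (-0.15), Mgat4c (-0.60), Mgat4a (-0.30) and B4galt3 (-0.0385) turned, and with the replicate block Mgat4c (-0.052). With each library left out, the ranges were -0.10 to 0.28 for Alg5, -0.0178 to 0.24 for Dpm2, -0.14 to 0.55 for Dpm3, -0.33 to 0.23 for Alg11, -0.18 to 0.21 for Alg6, -0.39 to 0.0621 for Man1a2, -0.0531 to 0.33 for Man1b1, -0.0046 to 0.47 for Mgat4b, -0.63 to 0.72 for Mgat4c, -0.15 to 0.31 for Mgat4a, -0.0305 to 0.43 for Fut8, -0.0568 to 0.38 for B4galt3 and -0.37 to 0.28 for Glt28d2.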
